A study of Mus musculus with 8 samples.

Results

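The plasminogen activators Plau and Plat, the urokinase receptor Plaur, and the serpin inhibitors Serpinb2 and Serpine2 were examined in cultured mouse kidney mesangial cells (MMC). These 5 genes were taken by symbol from the 24639 gene entries of each count list. The set was selected on measured values of these data, and which contrast chose which gene is not stated. All genotype differences of the 5 genes are treated as used in that choice. Genotype differences of the 5 genes are therefore descriptions. Where one is said to be called, it lay past a threshold that is also counted over all genes, and this is no evidence for the difference.

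MMC of wild-type (WT) mice and of miR-379KO mice were compared as total RNA and as AGO2-IP RNA, the RNA pulled down by beads carrying an antibody to AGO2. AGO2 is an Argonaute protein, to which microRNAs (miRNAs) are loaded to find their targets. Each of the 4 groups, 2 genotypes in each of 2 assays, had 2 samples, A and B. The miR-379KO mice were homozygous for a small CRISPR-Cas9 nickase deletion at miR-379, made in C57BL/6J embryos, and the labels give neither age nor treatment for any group. The cells grew out of sieved glomeruli, were used after several passages in medium with 10% fetal bovine serum, and can differ between isolations. Whether A and B came from separate mice is not stated in the labels, so the spread between them may be partly technical.

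Plau encodes urokinase and Plat encodes tissue plasminogen activator, the serine proteases that cleave plasminogen to plasmin. Plaur encodes the receptor that holds urokinase at the cell surface. Serpins trap such proteases in an inactive complex, and plasmin made in the glomerulus takes part in the turnover of fibrin and of mesangial matrix.

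Sequences of 3 kinds bear on how these RNAs could be read by miR-379 or regulated, and all come from RefSeq on GRCm38.p6. The first is the mature miRNA that the deletion removes, at chr12:109709065-109709085 on the plus strand, with its seed (bases 2 to 8) in capitals.
miR-379-5p: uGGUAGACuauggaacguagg
The 3′-UTR letters that pair with this seed are GTCTACC. They were absent from the longest annotated 3′-UTR of all 5 genes, on the sense strand, and were present in 906 of 19216 3′-UTRs (4.71%). These letters alone were searched, so shorter or imperfect pairing was not examined, nor was pairing with miR-379-3p.

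The second stretch is AU-rich sequence in the 3′-UTR of Serpinb2. The pentamer ATTTA, the core of elements known to shorten the life of many protease and cytokine mRNAs, occurred 6 times in the 659 bases of that 3′-UTR, or 9.1 copies per kb. This density was above that of 98.5% of all 3′-UTRs, where the median was 1.14 copies per kb. Plau, Plat and Plaur held 2 copies each, at 2.13, 2.7 and 4.01 copies per kb, and Serpine2 held 0. The 30 bases of Serpinb2 at chr1:107525300-107525329, plus strand, hold 3 of its copies, in capitals.
Serpinb2 3′-UTR: ctATTTAaagaaaatcagccATTTAATTTA

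The third stretch is the motif TGANTCA, which the AP-1 transcription factors are known to bind and which reads the same on both strands. It was searched in windows from 250 bases before to 50 bases after each transcript start, where 7.81% of 32851 promoters held it. Windows were found for Plaur, Serpinb2 and Serpine2, 3 of the 5 genes. Plaur and Serpinb2 held 1 match each, and Serpine2 held 0. The match of Plaur began 69 bases upstream of the start of its curated RefSeq transcript, in chr7:24462403-24462432 on the plus strand. That of Serpinb2 began 94 and 181 bases upstream of the starts of its 2 curated transcripts, in chr1:107511318-107511347 on the plus strand. Predicted transcripts of both genes start farther upstream, so both matches lie within the annotated gene spans given below. The match is in capitals.
Plaur promoter: acccctggagcTGACTCActctttagcaaa
Serpinb2 promoter: gagtaaaatgtTGAATCAtacaaagaatac

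The libraries differed in depth and make-up. Total RNA libraries held 17168230 to 22660743 gene counts and AGO2-IP libraries 5587611 to 17095021, of which the ribosomal precursor Rn45s took 72.2 to 80.5%. Of the reads that were uniquely placed, 46.6 and 49.7% fell outside genes in the WT AGO2-IP samples, against 73.4 and 76.4% in the miR-379KO AGO2-IP samples. The precursor row of miR-379 had 0 counts in all 4 total RNA libraries and at most 4 in AGO2-IP, too few to check the genotype labels. Of 10 mesangial and pericyte markers, 7 averaged at least 50 counts in total RNA, Acta2, Vim and Tagln among them, whereas Thy1, Pdgfra and Itga8 were near 0. The summed level of that list was 16600 and 21300 CPM (counts scaled to library size) in WT total RNA against 24600 and 24200 in miR-379KO, nearly all of it from Acta2, Vim and Tagln. Among other markers of the list, Des averaged 449 CPM in WT against 175 in miR-379KO, Cspg4 102 against 74.4 and Pdgfrb 158 against 146. The scaled samples overlapped between the genotypes for Des and Pdgfrb, but not for Cspg4. The WT mean of Des came mostly from sample B, and both miR-379KO samples lay above WT sample A. Gata3, at a far lower level, averaged higher in miR-379KO, also with overlap. The part of the list in the differences below was not tested. The sums ran from 0.0587 to 2.17 CPM for 6 endothelial, from 4.52 to 13.5 for 7 leukocyte and from 0.716 to 21.0 for 6 tubule markers, with the genotypes overlapping in each. Podocyte markers summed to 240 to 628 CPM, mostly Synpo, with Ptpro at 0. In such bulk samples, fewer cells expressing a gene and less of its RNA per cell cannot be told apart.

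Plat was the most abundant of the 5 mRNAs in WT MMC, and Serpinb2 was the scarcest by far. Per kb of exon, Plat stood at 78.5 ± 2.92 CPM (mean ± SD, n = 2, as below) in WT total RNA. Plau followed at 38.6 ± 3.77, Serpine2 at 33.0 ± 15.2 and Plaur at 33.0 ± 9.39 CPM per kb. The samples of these 3 genes overlapped, so their order cannot be told. Serpinb2 stood at 0.616 ± 0.0375 CPM per kb.

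In miR-379KO total RNA, Plat (73.4 ± 19.3 CPM per kb), Plau (54.6 ± 11.0) and Plaur (47.8 ± 0.693) overlapped from neighbor to neighbor. Serpine2 lay below them at 31.5 ± 15.1 CPM per kb and Serpinb2 at 2.53 ± 0.528.

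Total RNA was compared to ask which mRNA levels differed between the genotypes. Serpinb2, Plau and Plaur lay higher in both miR-379KO samples than in both WT samples, whereas Plat and Serpine2 overlapped. None of the 5 genes passed the test across all genes. CPM values below were scaled within each assay by TMM factors, so they compare samples of an assay and not total RNA with AGO2-IP.

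In WT total RNA, Plau (chr14:20836662-20843388, plus strand) had 1743 and 1654 counts, against 3610 and 2007 in miR-379KO, samples A and B in this order throughout. After scaling these were 104 and 90.5 against 157 and 118 CPM. The samples did not overlap, and the miR-379KO samples lay farther apart than the WT samples. Its log2 difference was 0.50 ± 0.23 (SE).

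Plat (chr8:22757722-22782848, plus strand) had 3271 and 3758 WT counts against 5114 and 2600 miR-379KO counts in total RNA, or 195 and 206 against 222 and 153 CPM. The miR-379KO samples lay on either side of the WT samples. A log2 difference of −0.10 ± 0.25 resulted, and 0.16 without miR-379KO sample B.

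Plaur (chr7:24460937-24475970, plus strand) had 758 and 1242 WT counts against 1866 and 1410 miR-379KO counts in total RNA. The scaled values were 45.2 and 68.0 against 81.1 and 82.8 CPM. The samples did not overlap, and WT sample A was the low one. Plaur thus differed by 0.53 ± 0.26 on the log2 scale.

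Serpinb2 (chr1:107500892-107525600, plus strand), also known as PAI-2 and an inhibitor of urokinase, had 24 counts in each WT total RNA sample and 149 and 82 in miR-379KO. These were 1.43 and 1.31 against 6.48 and 4.82 CPM. Both miR-379KO samples lay several-fold above both WT samples, at counts that were low throughout. The log2 difference was 2.04 ± 0.39, a 4.11-fold higher level, and it ran from 1.83 to 2.24 when single samples were left out.

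Serpine2 (chr1:79794317-79858665, minus strand), the protease nexin that inhibits thrombin, urokinase and plasmin, had 1876 and 1043 WT counts against 2480 and 907 miR-379KO counts in total RNA. At 112 and 57.1 against 108 and 53.3 CPM, the samples within a genotype differed and the genotypes did not separate. Serpine2 differed by −0.07 ± 0.44 on the log2 scale. Without WT sample A it was 0.50, without miR-379KO sample B 0.36, and with all 8 libraries in the fit 0.039.

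**Figure D1:**
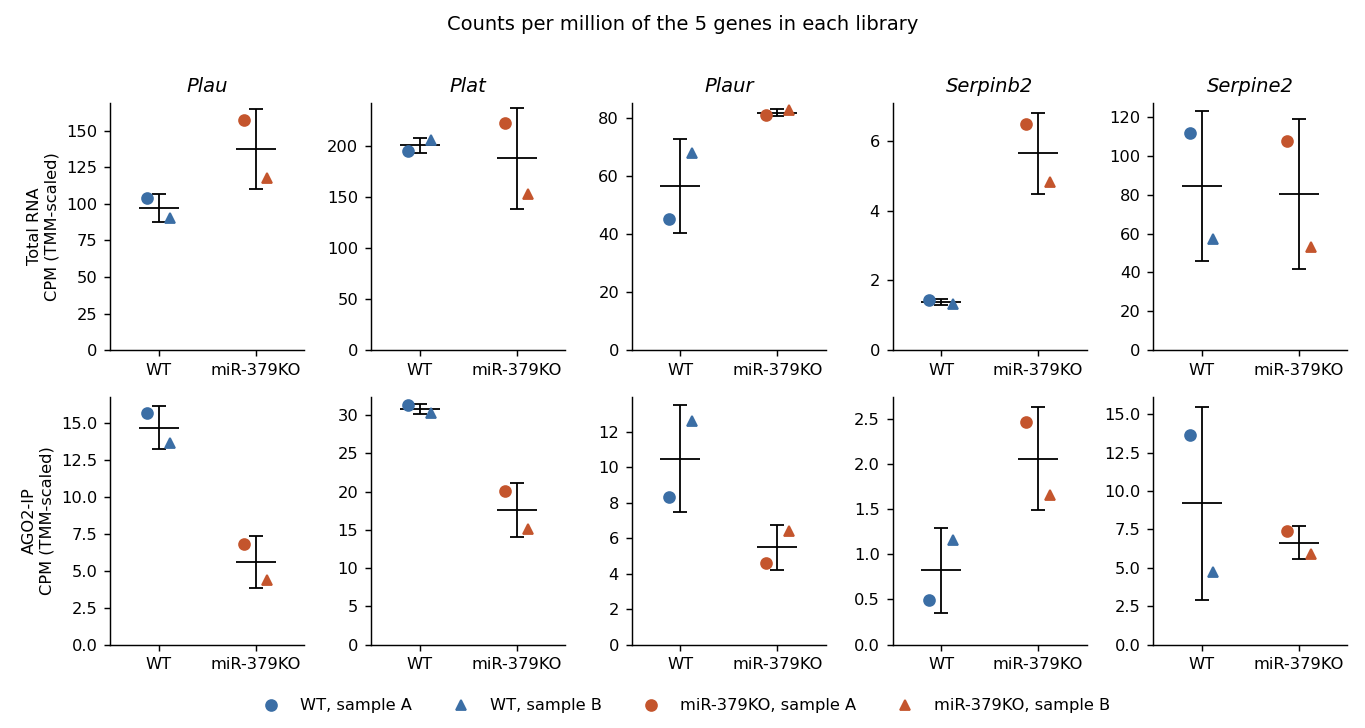
TMM-scaled counts relative to library size (CPM, linear axes from 0) of the 5 genes in each library, total RNA in the upper row and AGO2-IP in the lower row. Points are samples A and B, and bars are the mean ± SD. Plau and Plaur lay higher in miR-379KO in total RNA and lower in AGO2-IP, and Serpinb2 lay higher in miR-379KO in both assays.

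By edgeR's quasi-likelihood test with Benjamini-Hochberg adjustment, a call being an adjusted p under 0.05, 0 of the 5 genes were called in total RNA, where 0 of 12321 genes (0.0%) were called at all. At an unadjusted p under 0.05, 1 of the 5 genes (Serpinb2) and 91 of all genes passed. DESeq2 called 0 genes and had 110 at that unadjusted level. The study itself used a cutoff of a 1.5-fold change and an unadjusted p under 0.05, and by it Serpinb2 was the 1 of 5 that passed, against 0.333% of all genes on the higher side. Of all genes, 9.89% lay higher in both miR-379KO samples than in both WT samples and 9.07% lay lower in both. Since the 5 genes may have been chosen on their total RNA differences, the passing of Serpinb2 is no evidence for its difference.

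The AGO2-IP libraries were compared to ask which RNAs were recovered differently with AGO2 when miR-379 was deleted. Plau, Plat and Plaur were lower in miR-379KO AGO2-IP, Serpinb2 was higher, and Serpine2 overlapped. The estimate of Plau was 2.62-fold lower.

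In WT AGO2-IP, Plau had 160 and 118 counts, against 58 and 34 in miR-379KO. These were 15.7 and 13.6 CPM against 6.81 and 4.34 CPM, with no overlap and a log2 difference of −1.39 ± 0.25. Single samples left out moved this value between −1.83 and −1.12.

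Plat had 319 and 262 WT counts against 171 and 118 miR-379KO counts. At 31.3 and 30.3 against 20.1 and 15.1 CPM, the samples did not overlap. Plat differed by −0.81 ± 0.23 on the log2 scale. Its call was lost without miR-379KO sample B, at −0.63.

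Plaur had 85 and 109 WT counts against 39 and 50 miR-379KO counts, or 8.33 and 12.6 CPM against 4.58 and 6.39 CPM. The samples did not overlap, with a log2 difference of −0.93 ± 0.27. Its call was lost without WT sample B, at −0.65, and without miR-379KO sample A, at −0.78.

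Serpinb2 had 5 and 10 WT counts against 21 and 13 miR-379KO counts, or 0.490 and 1.16 CPM against 2.46 and 1.66 CPM. The samples did not overlap, at counts too low for a firm size. The log2 difference was 1.36 ± 0.49. The call was lost without WT sample A at 0.77, without miR-379KO sample A at 0.96 and without miR-379KO sample B at 1.58. DESeq2 had an estimate of 1.07 and gave the gene no adjusted p, so no call could be made there.

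Serpine2 had 139 and 41 WT counts against 63 and 46 miR-379KO counts. Both miR-379KO samples, at 7.39 and 5.88 CPM, lay between the WT samples at 13.6 and 4.74 CPM. Its log2 difference of −0.48 ± 0.43 became 0.42 without WT sample A and −1.08, with a call, without WT sample B.

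**Figure D2:**
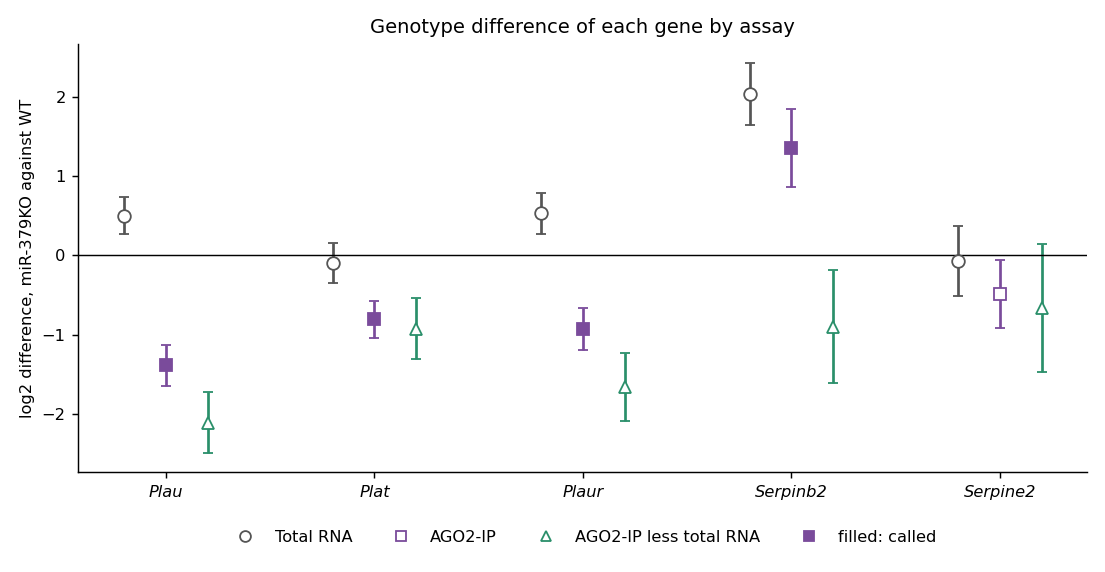
Log2 difference between miR-379KO and WT (± SE, linear axis) in total RNA, in AGO2-IP, and in AGO2-IP less total RNA, for the 5 genes. Filled symbols were called by edgeR at an adjusted p under 0.05. Plau ran from 0.50 in total RNA to −1.39 in AGO2-IP, and Serpinb2 lay above 0 in both assays.

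In AGO2-IP, 4 of the 5 genes were called, 3 lower and 1 higher. The background was high, since 30.9% of the 13505 genes tested were called, 21.4% higher and 9.52% lower. The split of 2887 genes higher and 1286 lower moved with the method, to 86 and 1314 by DESeq2. Within edgeR it was 2850 and 1505 with RLE factors, and 3469 and 465 with TMM factors from genes expressed in total RNA. Among genes with a mean over 1000 total RNA counts, which include Plau, Plat, Plaur and Serpine2 but not Serpinb2, 26.4% were called lower and 0.192% higher. The median log2 difference of those 3651 genes was −0.45. Plau, Plat and Plaur lay below it, as did Serpine2 by little, at −0.48 with overlapping samples. Of all genes, 32.2% lay lower in both miR-379KO samples than in both WT samples and 36.1% lay higher in both.

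The genes without total RNA counts moved with the genotype in AGO2-IP. For the 5195 protein-coding genes at 0 in every total RNA library, the AGO2-IP level was 1.16 and 0.782 counts per kb of exon in WT, against 2.64 and 3.01 in miR-379KO. Plau stood 55.0-fold and 59.9-fold above this level in WT AGO2-IP, against 8.72-fold and 4.48-fold above it in miR-379KO. Plat stood 108-fold and 131-fold above it in WT and 25.4-fold and 15.3-fold in miR-379KO.

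Serpinb2 was the member nearest to that level in every AGO2-IP library. Its counts per kb were 1.94-fold and 5.74-fold above the silent genes in WT and 3.57-fold and 1.94-fold above in miR-379KO, and these ratios overlapped between the genotypes. Of the 11 clade B serpins listed as its neighbors on the chromosome, 10 had 0 counts in total RNA. These 10 together had 40 and 46 AGO2-IP counts in WT, against 119 and 140 in miR-379KO, and 7 of the 8 that could be tested were called higher. The log2 differences of all 8 ran from 0.72 to 2.41. With the silent-gene level subtracted from the counts, the log2 difference was −1.10 for Plau, −0.34 for Plat and −0.53 for Plaur, the calls of Plat and Plaur were lost, and Serpinb2 could not be fitted. What the higher level of the silent genes contributes to each member's difference was not tested otherwise.

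**Figure D3:**
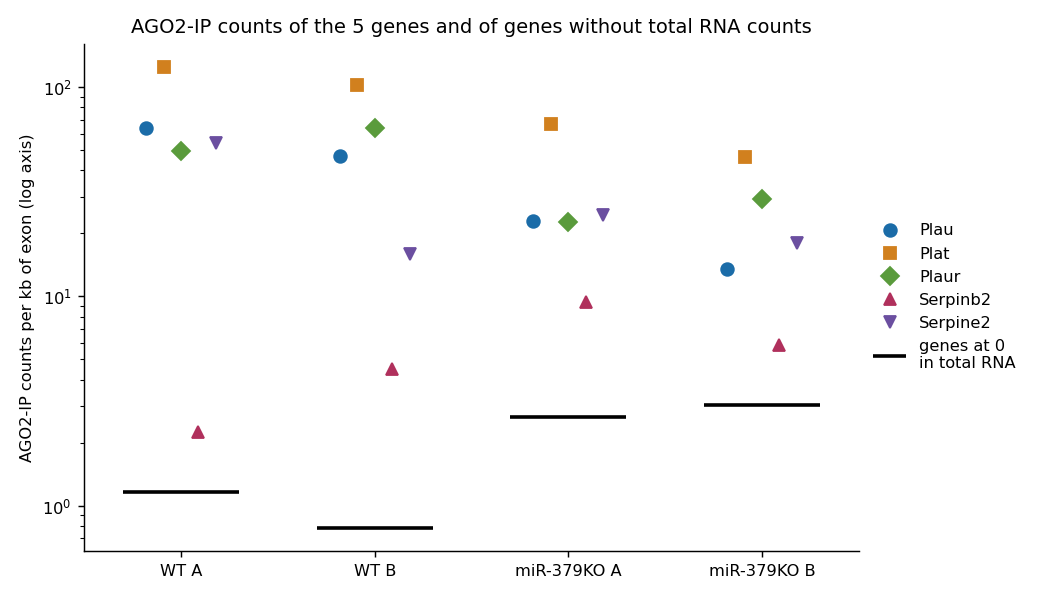
AGO2-IP counts per kb of exon (log axis) of the 5 genes in the 4 AGO2-IP libraries, with black lines at the level of the 5195 genes that had 0 total RNA counts. The line lay at 1.16 and 0.782 in WT and at 2.64 and 3.01 in miR-379KO, and Serpinb2 lay nearest to it in each library.

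The difference in AGO2-IP less the difference in total RNA asks whether AGO2-IP recovery changed beyond the mRNA level. The estimate was below 0 for all 5 genes. Plau had −2.11 ± 0.38, Plaur −1.66 ± 0.43, Plat −0.92 ± 0.39, Serpinb2 −0.90 ± 0.72 and Serpine2 −0.66 ± 0.81. The last 2 turned above 0 when a single WT AGO2-IP sample was left out, Serpinb2 at 0.10 without B and Serpine2 at 0.53 without A.

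In this contrast edgeR called 0 of the 5 genes and 0 of 17429 genes (0.0%). At an unadjusted p under 0.05, 3 of the 5 (Plau, Plaur, Plat) and 2733 of all genes passed, and under the study's cutoff 10.9% of all genes lay on the lower side. DESeq2 called 211 genes and 1 of the 5, Plau, at −1.85. The highly expressed genes had a median of −0.68 here, and the median of all genes moved to 0.39 when TMM factors were taken only from genes expressed in total RNA, a setting added after the data were seen. Without WT total RNA sample A, Plau was called, and without WT total RNA sample B, Plau and Plaur were called.

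Counts of one gene set against another in the same library need no scaling between libraries. Plau reached 53.3 and 44.0 counts per 100 Plat counts in WT total RNA and 70.6 and 77.2 in miR-379KO total RNA. In AGO2-IP the order turned, with 50.2 and 45.0 per 100 in WT, against 33.9 and 28.8 in miR-379KO. The WT values overlapped between the assays, and the miR-379KO values lay above them in total RNA and below them in AGO2-IP.

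Plaur per 100 Plat counts was 23.2 and 33.0 in WT, against 36.5 and 54.2 in miR-379KO total RNA, and overlapped between the genotypes in AGO2-IP at 26.6 and 41.6 against 22.8 and 42.4. Plau and its receptor thus gave no separation of the genotypes when set against each other. Plau per 100 Plaur counts was 230 and 133 in WT, against 193 and 142 in miR-379KO total RNA, and 188 and 108 against 149 and 68.0 in AGO2-IP.

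Serpinb2 was a small fraction of Plau in total RNA, at 1.38 and 1.45 counts per 100 Plau counts in WT, against 4.13 and 4.09 in miR-379KO. In AGO2-IP it was 3.12 and 8.47 per 100 in WT, against 36.2 and 38.2 in miR-379KO. The samples agreed closely within total RNA, and the AGO2-IP ratios carry the level of the silent genes described above.

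**Figure D4:**
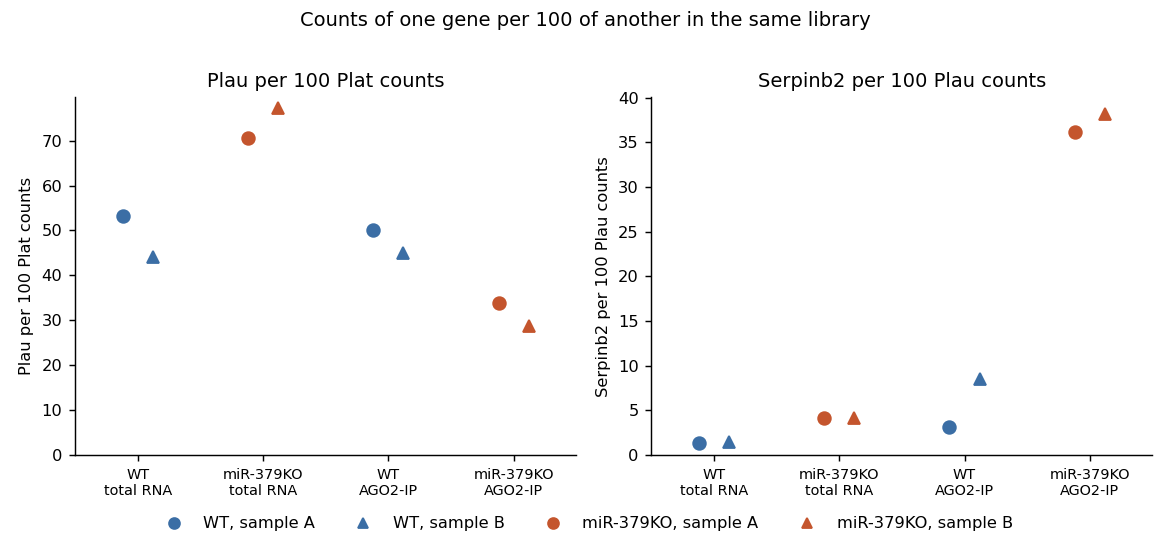
Counts of Plau per 100 Plat counts (left) and of Serpinb2 per 100 Plau counts (right) within each library, on linear axes from 0, with samples A and B as points. Plau per 100 Plat was 53.3 and 44.0 in WT against 70.6 and 77.2 in miR-379KO for total RNA, and 50.2 and 45.0 against 33.9 and 28.8 for AGO2-IP.

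AGO2-IP was also set against total RNA within each genotype, to ask which mRNAs were over- or under-represented in AGO2-IP. The assays also differed in library protocol, a stranded mRNA kit against small RNA-seq of cross-linked, sonicated RNA, and no library was a control pulldown. Assay and protocol thus cannot be told apart, so these differences do not measure binding to AGO2 alone. A call here needed an adjusted p under 0.05 and a 2-fold difference. The differences of the 5 genes enter the AGO2-IP less total RNA difference above, so they and their calls are descriptions. In WT MMC, 1 of the 5 genes lay past both limits, Serpinb2 on the higher side, while 35.7% of 17429 genes were called higher, 7.33% lower and 43.1% in all. For miR-379KO MMC, Plau, Plat and Plaur were called lower, while 61.0% of genes were called, 41.6% higher and 19.3% lower.

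In WT, Plat had a log2 difference of −0.22 ± 0.27, Plaur 0.03 ± 0.29 and Serpine2 −0.67 ± 0.56, and none of these was called. Serpine2 was called at −1.88 without WT AGO2-IP sample A. Plau had −0.23 ± 0.26. The highly expressed genes had a median of −0.45, with 21.7% of them called lower. Plaur changed sign with scaling and sample omission, so no direction is given for it.

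Serpinb2 had 1.72 ± 0.56 in WT, on 5 and 10 AGO2-IP counts. Its total RNA counts may have served to choose the gene, so the value is a description. It was short of the limits without WT AGO2-IP sample B, at 0.69, and with an offset for GC and length the value was −0.11. Serpinb2 is AT-rich, with 39.9% GC over its exons against 49.4 to 53.2% in the other 4 genes.

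In miR-379KO, Plat had −1.14 ± 0.28 and Plaur −1.63 ± 0.31. Plau had −2.34 ± 0.29, a value that shares its data with the difference that brought the gene in. Highly expressed genes had a median of −1.09, and 53.8% of them were called lower. Serpine2 had −1.33 ± 0.58, which was not called. It was called at −1.83 without miR-379KO total RNA sample B and at −1.35 and −1.36 without WT AGO2-IP sample A or B. Serpinb2 had 0.82 ± 0.47, likewise a description, which became −1.93, past both limits on the lower side, with the GC and length offset. The call of Plat was lost in 8 of 18 alternatives, among them RLE factors at −0.95, omission of miR-379KO total RNA sample A at −0.86 and of miR-379KO AGO2-IP sample B at −0.93. That of Plaur was lost with the GC and length offset, at −0.71.

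Of 53 other genes of the system, 16 had 0 counts in all total RNA libraries, plasminogen (Plg) among them, whose count of 0 allows up to 3 counts in a library. In total RNA 30 of the 53 could be tested and 0 were called by edgeR or DESeq2, with 0 at an unadjusted p under 0.05 and a median log2 difference of 0.04. In AGO2-IP 39 could be tested, and 14 of them rose while 13 fell, at a median of −0.11 against −0.01 over all genes, of which 21.4% were called higher and 9.52% lower. DESeq2 called 1 higher and 16 lower, and edgeR called 7 in all without miR-379KO sample B and 14 without WT sample B.

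Among the clade B neighbors 9 could be tested in AGO2-IP and 8 were called, all higher. The 2 plasminogen and plasmin inhibitor genes tested, Plg and A2m, were both called higher. All of these but Serpinb8 had 0 counts in total RNA, like the silent genes, whose level was higher in miR-379KO AGO2-IP. Of the 7 clearance receptors and their chaperone, 5 were called lower, Lrp1 and Mrc2 among them, and Lrp2 was called higher. Among the uPAR partners, Itgav, Itgb3 and Itgb5 of 5 tested genes were lower. Among 5 other serpins tested, Serpinf1 and Serpinh1 were lower and Serpina3n was higher. Serpina3n had only 2 and 1 WT against 9 and 10 miR-379KO AGO2-IP counts, and at most 8 counts in any total RNA library. Of the 6 other enzymes and substrates tested, F2r and Prss23 were lower and Hgf, with at most 2 counts in any total RNA library, was higher.

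Serpini1, which encodes neuroserpin, an inhibitor of tissue plasminogen activator, was called higher in AGO2-IP on 8 and 10 WT counts against 25 and 24 miR-379KO counts. Its total RNA counts were 24 and 21 in WT against 29 and 21 in miR-379KO. The silent-gene level was also higher in miR-379KO AGO2-IP, at 2.64 and 3.01 counts per kb against 1.16 and 0.782 in WT. Its part in the Serpini1 difference was not tested.

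Anxa2, a cell surface protein that binds plasminogen and Plat, had a log2 difference of 0.50 ± 0.32 in total RNA (edgeR adjusted p = 0.9997). In AGO2-IP it was −0.95 ± 0.27 (edgeR adjusted p = 0.0120). This AGO2-IP call held in 8 of 15 alternatives, with estimates from −1.36 to −0.40. Among others, it was lost with the silent-gene level subtracted, at −0.42, and without WT sample B, at −0.55, or miR-379KO sample B, at −0.94. For AGO2-IP against total RNA, Anxa2 had −1.53 ± 0.35 in WT (edgeR adjusted p = 0.00163) and −3.17 ± 0.37 in miR-379KO. Its partner S100a10 had −1.64 ± 0.35 in WT and −2.97 ± 0.37 in miR-379KO on the same comparison. Both were under-represented in AGO2-IP in each genotype. The WT call of Anxa2 held in 16 of 18 alternatives, with estimates from −2.28 to −0.82.

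Among listed genes that averaged 50 counts or more, the larger genotype differences in AGO2-IP were Serpinf1 at −1.63 ± 0.30 (edgeR adjusted p = 0.00120), Mrc2 at −1.18 ± 0.27 (adjusted p = 0.00340) and Serpinh1 at −1.14 ± 0.32 (adjusted p = 0.0104). The call of Mrc2 held in 11 of 15 alternatives, with estimates from −1.55 to −0.64. The call of Serpinh1 held in 8 of 15 alternatives, with estimates from −1.535 to −0.61. Among others, it was lost without WT sample B, at −0.79, or miR-379KO sample B, at −0.89. Lrp2 (megalin) lay higher, at 1.40 ± 0.26 (adjusted p = 0.000672), and was not called with all 8 libraries in 1 fit, at 1.25. Relative to the silent genes Lrp2 stood 2.41-fold and 3.98-fold above in WT and 2.26-fold and 2.52-fold above in miR-379KO. Lrp1, the receptor that clears protease and serpin complexes, was over-represented in AGO2-IP against total RNA at 2.38 ± 0.37 in WT (adjusted p = 8.7e-05) and 1.09 ± 0.35 in miR-379KO (adjusted p = 0.0111), the latter not called without miR-379KO total RNA sample A or AGO2-IP sample A, at 0.82 each. Mrc2 (1.60 ± 0.33, and not called at 0.94 without WT AGO2-IP sample A) and Igf2r (1.45 ± 0.24) were over-represented in WT. Serpinb6a was under-represented, at −1.39 ± 0.29 in WT and −2.47 ± 0.31 in miR-379KO. Its WT call held in 16 of 18 alternatives, with estimates from −2.045 to −0.90. The over-represented Lrp1, Igf2r and Mrc2 have 14892, 8929 and 6355 exon bases, against 1799, 650 and 2096 for Anxa2, S100a10 and Serpinb6a. The part of length in these differences was not tested on its own.

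The genes whose log2(CPM + 1) tracked each member most closely over the 8 libraries were searched among 4856 genes. They were Tnpo2 and Tinagl1 for Plau (Pearson r of 0.992 and 0.991), Nfkb1 for Plat (0.991), and Pgm3 and Plk2 for Plaur (0.980 and 0.976). Serpine2 was closest to Trib2 and Synpo (0.956 each), and Serpinb2 to Katnbl1 and Cyp20a1 (0.883 and 0.820). The 8 points share the large level difference between the assays, so these values describe rank of likeness only.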

How the data were processed

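The members and gene lists were chosen with earlier results of these data known. The authors deposited gene counts in whole reads, not normalized, as 1 list for each sample. By their methods, a stranded mRNA kit served for total RNA. For AGO2-IP, cells were cross-linked with UV and sonicated, and the recovered RNA was sequenced as small RNA-seq, without the ligation of miRNAs to their targets. Reads were aligned to mm10 with TopHat and counted on RefSeq genes with htseq-count in reverse-stranded mode, and the submitters' processing notes list TopHat, Bowtie2 2.1.0.1 and HTSeq 0.6.0. Reads placed at several sites are not in gene counts, so near-identical family members such as Serpinb3a to Serpinb3d, or Eno1, are uncertain.

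Symbols were matched to RefSeq GRCm38.p6 for 98.69% of entries. Counts were tested in edgeR 4.0.16 (R 4.3.3, limma 3.58.1) with TMM factors, filterByExpr (minimum count 10), robust quasi-likelihood F tests and Benjamini-Hochberg adjustment over all tested genes. Genotype differences used the 4 libraries of an assay, and the other contrasts all 8. CPM per kb used the union of exons. DESeq2 1.42.0 was an alternative. The code was tested on simulated data. Replicates differed beyond sampling noise, with chi-square per degree of freedom of 3.51 to 119, and counting error is larger at low counts, as for Serpinb2.

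Named genes were the 5 members and Anxa2, up to 3 other listed genes per direction and comparison with the largest change among called genes averaging 50 counts or more, and the 2 genes most correlated with each member. Serpini1, Plg, A2m and the genes named within lists were added after their values were seen. Some genes that this rule or the lists name are not reported here.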

Additional observations from a re-analysis of the deposited data

Results flagged for a closer look

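Plau and Plaur lay higher in both miR-379KO samples than in both WT samples in total RNA and lower in both in AGO2-IP, so that their genotype differences went in opposite directions in the 2 assays. The AGO2-IP difference less the total RNA difference was −2.11 ± 0.38 (SE) on the log2 scale for Plau and −1.66 ± 0.43 for Plaur. This difference was tested by the contrast of all 4 groups, in which edgeR called neither gene after adjustment over 17429 genes, and DESeq2 called Plau at −1.85. Plau was the gene that this contrast brought in, so its value is a description. Among genes with a mean over 1000 total RNA counts, the median of the same contrast was −0.68. The reversal was not particular to these genes. Anxa2 and Serpinb6a also lay higher in total RNA and lower in AGO2-IP without overlap, with −1.64 ± 0.49 and −1.08 ± 0.41 in this contrast. Of all genes, 9.89% lay higher in both miR-379KO samples in total RNA and 32.2% lower in both in AGO2-IP. The share that did both was not counted.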

How the results depend on the processing

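Among 405 alternative fits of the 5 members, 336 kept the direction and the side of the threshold, 33 lost a call, 16 gained one and 20 changed sign. The 33 include Serpinb2 in AGO2-IP by DESeq2, which gave it no adjusted p. No member was called in total RNA under any of 13 alternatives. In AGO2-IP, 4 members were called at first, 1 with a minimum mean of 50 counts, 1 with all 8 libraries in 1 fit, 1 with the silent-gene level subtracted, 2 with the GC and length offset and 2 to 4 with a sample left out. Of the other listed genes, 27 were called at first, 17 by DESeq2, 2 with the mean of 50, 14 with the offset, 3 with all 8 libraries, 4 with the level subtracted and 7 to 23 with a sample left out. All genes called in AGO2-IP ranged from 274 with the mean of 50 to 5150 without a filter, against 4173, and DESeq2 called 1400, 86 higher and 1314 lower. In the contrast of the 2 assays, 0 members and 0 other genes were called at first, 1 member by DESeq2, and 0 to 2 members and 0 to 10 others with a sample left out, the most without WT total RNA B. For AGO2-IP against total RNA in WT, 1 member became 0 with the mean of 50 and with the offset and 0 to 2 with a sample left out, and 27 other genes became 9 with the mean of 50. In miR-379KO, 32 other genes became 8 there.

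The letters A and B are shared by the 4 groups but were not shown to pair samples. Deviations of same-letter samples correlated at −0.073 between WT and miR-379KO total RNA and at 0.069 in AGO2-IP, and at 0.317 and 0.273 between the assays of WT and of miR-379KO. Across both assay and genotype, they correlated at 0.223 for miR-379KO total RNA with WT AGO2-IP and at −0.111 for WT total RNA with miR-379KO AGO2-IP. With the letter as a replicate block, 3 members were called in AGO2-IP and 1 in the contrast of the assays, where all genes called went from 0 to 8. The block with the offset gave 1 and 1 members and 11 other genes, and 0 members in WT AGO2-IP against total RNA. A replicate block by culture (genotype and letter) gave 2 members and 13 other genes in the contrast, with 1108 of all genes. In miR-379KO AGO2-IP against total RNA, Serpine2 was called at −1.26 with the letter as a replicate block and at −1.27 with the block by culture.

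Signs changed with single samples left out for Plat in total RNA (−0.37 to 0.16), Serpine2 in total RNA (−0.64 to 0.50), in AGO2-IP (−1.08 to 0.42) and in the contrast (−1.13 to 0.53), and Serpinb2 in the contrast (−1.21 to 0.10). Serpine2 in total RNA was 0.039 with all 8 libraries. In AGO2-IP against total RNA, Serpinb2 was −0.11 in WT and −1.93 in miR-379KO with the offset (−0.11 and −1.93 with the block as well). In WT, Plaur was −0.053 by DESeq2, −0.029 with RLE factors and −0.014 without Rn45s and Lars2, and from −0.59 to 0.45 with samples left out. The cause of these changes was not tested. Depth limits Serpinb2 most, at 5 to 21 AGO2-IP counts.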
